A study of Mus musculus with 14 samples.

Results

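The 8 genes described here are Csf1r and 7 transcription factors that set macrophage identity, Spi1, Cebpa, Cebpb, Irf8, Maf, Klf4 and Runx1. They were picked by name and not by a rule on their values, though earlier results of these data were known. All 8 are among the 21444 genes counted in each mRNA library and the 14019 genes with enough reads to be tested. Csf1r encodes the receptor tyrosine kinase for CSF1, the growth factor on which macrophages depend for survival and proliferation. Spi1 encodes PU.1, the ETS factor that opens macrophage enhancers and activates Csf1r, and Runx1, C/EBPα and C/EBPβ act with PU.1 at many of these enhancers. IRF8 favours the monocyte over the neutrophil fate, KLF4 acts in monocyte differentiation, and c-Maf restrains self-renewal and shapes the mature macrophage. The levels of such factors can also be tuned after transcription, by miRNAs loaded on AGO2 and by proteins that bind the 3′ untranslated region (3′ UTR), of which ELAVL1 (HuR) is one.

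The study asked how ELAVL1 bears on miRNA binding in mouse macrophages. Cells labelled knockout (KO) came from C57BL/6 mice of genotype ELAVL1f/f with LysM-Cre, and cells labelled wild type (WT) from C57BL/6 mice of genotype ELAVL1f/f without Cre, so the floxed allele is in both groups and the Cre in KO alone. Marrow cells were grown into macrophages with 20% medium from L929 cells, a fibroblast line that secretes CSF1, for 6 days by the growth protocol and 7 by the design text. Libraries of mRNA numbered 1 to 4 exist for each genotype, with small RNA libraries of KO 3, KO 4, WT 1 and WT 2 and 1 AGO2 PAR-CLIP library per genotype. LysM-Cre sits in the Lyz2 gene and is active in myeloid cells, so deletion depends on how far marrow cells have matured, and an effect of the Cre itself cannot be told apart from that of losing ELAVL1. The labels give no age or sex and do not tie a number to an animal, so a p-value reflects the spread among libraries that the design text calls biological repeats.

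Total counts were 8160789 to 25030262 in the KO mRNA libraries and 11192104 to 24681273 in the WT mRNA libraries. Elavl1 mRNA itself was no lower under the knockout label, at 69.5 ± 6.13 CPM (counts scaled by the library total with TMM) in KO and 63.5 ± 2.00 CPM in WT (SD, n = 4 each). Counts over the whole gene cannot show the loss of a floxed part, so genotypes are those of the labels. The cells carried macrophage markers: Adgre1, which encodes F4/80, had 3180 ± 396 CPM in KO and 3420 ± 600 CPM in WT, and Cd68 had 1350 ± 384 CPM in KO and 1160 ± 295 CPM in WT. Ly6g, a neutrophil marker, was at 0 in 7 of the 8 libraries, and the T cell marker Cd3e was at most 0.129 CPM in any. Other markers of such cells were higher: Mpo, of granulocyte precursors, had 3.46 to 30.6 CPM and Cd247, of T and NK cells, 1.12 to 2.86 CPM. A list of 15 neutrophil and granulocyte precursor genes summed to 39.5 to 88.7 CPM in KO and 19.6 to 59.9 CPM in WT. The libraries fell into a pair of number sets. Y-linked genes summed to 67.1 to 92.5 CPM in numbers 1 and 2 of both genotypes and to 0.121 to 0.422 CPM in numbers 3 and 4.

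PAR-CLIP feeds cells 4-thiouridine, and a uridine crosslinked to the precipitated protein is read as C, so a T-to-C conversion marks contact. The deposited tables list groups, which are stretches covered by overlapping reads, each with at least 5 reads, a class (3′ UTR, coding, 5′ UTR or intron), a read count and a count of conversion events. A group is called fully converted below where its events equal its reads. Groups of Spi1 are listed there under its older symbol Sfpi1. The sequences of the following groups are shown because they hold a seed match to an abundant macrophage miRNA or, in Spi1, carry most of its WT 3′ UTR reads. The miR-155-5p match is shown although that miRNA is far less abundant, because its regulation of PU.1 is known from mouse B cells. A seed is bases 2 to 8 of a miRNA, and a match is either the 7 letters that pair with it or those that pair with bases 2 to 7 followed by A, read on the transcript strand. The letters searched were AGCATTA or GCATTAA for miR-155-5p, TGTTTAC or GTTTACA for miR-30e-5p, ACTGTGA or CTGTGAA for miR-27b-3p, CTGAGCC or TGAGCCA for miR-24-3p and AATGTGA or ATGTGAA for miR-23a-3p. Both forms together make an 8mer, and a match is a description, not a shown binding site. The mature miRNAs, from RefSeq (GRCm38.p6 table), have their seed in capitals.
miR-155-5p: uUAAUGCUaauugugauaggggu
miR-30e-5p: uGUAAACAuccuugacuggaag
miR-27b-3p: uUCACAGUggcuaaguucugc
miR-24-3p: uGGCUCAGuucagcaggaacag
miR-23a-3p: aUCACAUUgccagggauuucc

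The groups themselves are given on build mm9 with the coordinates of the tables, which do not state whether a chromosome starts at 0 or 1, 5′ to 3′ on the transcript, with the letters of the seed match in capitals. The Spi1 and Irf8 groups are on the plus strand and the Runx1 and Maf groups on the minus strand.
Spi1 3′ UTR, KO, chr2:90955580-90955605, miR-155-5p match: accccgccggccatAGCATTAAcccg
Spi1 3′ UTR, WT, chr2:90955886-90955915, no match: aagtaaaattattgacagctattctcccag
Runx1 3′ UTR, KO and WT, chr16:92605156-92605185, miR-30e-5p match: aaatatTGTTTACAttaaactccctttatg
Runx1 coding, KO and WT, chr16:92605762-92605791, miR-27b-3p match: cttctgatttagcaatgCTGTGAAtaaaag
Runx1 coding, WT, chr16:92605792-92605815, miR-27b-3p match: aatcccggagggaaACTGTGAAtg
Irf8 coding, KO, chr8:123267736-123267762, miR-24-3p match: acatttCTGAGCCAtataaagtttacc
Irf8 coding, WT, chr8:123267736-123267756, miR-24-3p match: acatttCTGAGCCAtataaag
Maf 3′ UTR, KO, chr8:118207839-118207867, miR-23a-3p match: ctcagaagaaaagacacatAATGTGAttg
Maf 3′ UTR, WT, chr8:118227882-118227905, miR-30e-5p match: accgatgcactaaatTGTTTACtg

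Spi1 had the highest mRNA level per length of the 8 members, and Klf4 the lowest. On the authors' RPKM scale, which divides by gene length, the median over the 8 libraries was 457 RPKM for Spi1, 184 for Csf1r, 177 for Cebpb, 79.3 for Irf8, 73.6 for Maf, 36.7 for Cebpa, 7.67 for Runx1 and 2.07 for Klf4. Spi1 ranked 62 to 184 among all genes of a library by RPKM and Csf1r 212 to 474. Klf4 ranked 8524 to 11081. Neighbours in this order stood in the same order in 8 of 8 libraries, except for 2 of them: Csf1r was above Cebpb in 4 of 8 libraries and Irf8 above Maf in 5 of 8.

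Csf1r, the receptor, had 1691, 2892, 2423 and 2553 CPM in KO 1 to 4, against 1692, 3432, 2124 and 2398 CPM in WT 1 to 4. Number 1 was the lowest and number 2 the highest library in both genotypes, and the genotypes overlapped. The means were 2390 ± 506 CPM in KO and 2412 ± 740 CPM in WT (SD, n = 4 each). The log2 fold change, KO over WT throughout, was -0.01 (SE 0.26, edgeR quasi-likelihood (QL) adjusted p = 0.9999). Comparing each KO library with the WT library of its number, by fitting the number as a block, gave 0.01 (SE 0.09, edgeR QL adjusted p = 0.9834). The 95% interval of that blocked fold ran from 0.876 to 1.15, which bounds the change in the receptor's mRNA if equal numbers are pairs. Without the block the 95% interval of the log2 fold change was -0.60 to 0.57.

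Spi1 had 1128, 1042, 428 and 427 CPM in KO 1 to 4, against 987, 1021, 375 and 436 CPM in WT 1 to 4. Numbers 1 and 2 were high and numbers 3 and 4 low in both genotypes, and the genotypes overlapped. The log2 fold change was 0.10 (SE 0.45, edgeR QL adjusted p = 0.9999) and the blocked one 0.10 (SE 0.08, edgeR QL adjusted p = 0.7213). With the block the fold lay between 0.949 and 1.20.

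Cebpb, which encodes an inducible C/EBP factor of inflammatory and differentiating macrophages, had 487, 444, 195 and 177 CPM in KO 1 to 4, against 382, 648, 179 and 192 CPM in WT 1 to 4. WT 2 was the highest library, numbers 3 and 4 were low in both genotypes, and the genotypes overlapped. Its log2 fold change was -0.10 (SE 0.49, edgeR QL adjusted p = 0.9999), or -0.05 with the block (SE 0.12, edgeR QL adjusted p = 0.9223). Cebpa, the C/EBP factor that commits progenitors to the myeloid lineage, had 105, 237, 128 and 95.7 CPM in KO 1 to 4, against 79.1, 241, 106 and 111 CPM in WT 1 to 4. Number 2 was the highest library in both genotypes and the genotypes overlapped. Its log2 fold change was 0.07 (SE 0.40, edgeR QL adjusted p = 0.9999).

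Irf8 had 265, 299, 282 and 242 CPM in KO 1 to 4, against 220, 322, 221 and 256 CPM in WT 1 to 4. All 4 KO libraries lay inside the range of the WT libraries. Its log2 fold change was 0.09 (SE 0.17, edgeR QL adjusted p = 0.9999), and the blocked fold lay between 0.935 and 1.24. Maf had 1358, 978, 565 and 542 CPM in KO 1 to 4, against 1399, 926, 606 and 522 CPM in WT 1 to 4. Number 1 was the highest library and numbers 3 and 4 the lowest in both genotypes, which overlapped. Its log2 fold change was -0.004 (SE 0.39, edgeR QL adjusted p = 0.9999), with a blocked fold between 0.89 and 1.12.

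Runx1, the partner of CBFβ, had 157, 146, 128 and 140 CPM in KO 1 to 4, against 164, 148, 125 and 129 CPM in WT 1 to 4, and the genotypes overlapped. Its log2 fold change was 0.01 (SE 0.15, edgeR QL adjusted p = 0.9999), and the blocked fold lay between 0.908 and 1.13. Klf4 had 16.7, 17.5, 12.4 and 14.8 CPM in KO 1 to 4, against 12.3, 21.7, 9.56 and 13.4 CPM in WT 1 to 4. WT 2 was the highest and WT 3 the lowest of the 8 libraries. Its log2 fold change was 0.11 (SE 0.26, edgeR QL adjusted p = 0.9999), and the blocked fold lay between 0.903 and 1.36, the highest upper bound of the 8.

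**Figure D1:**
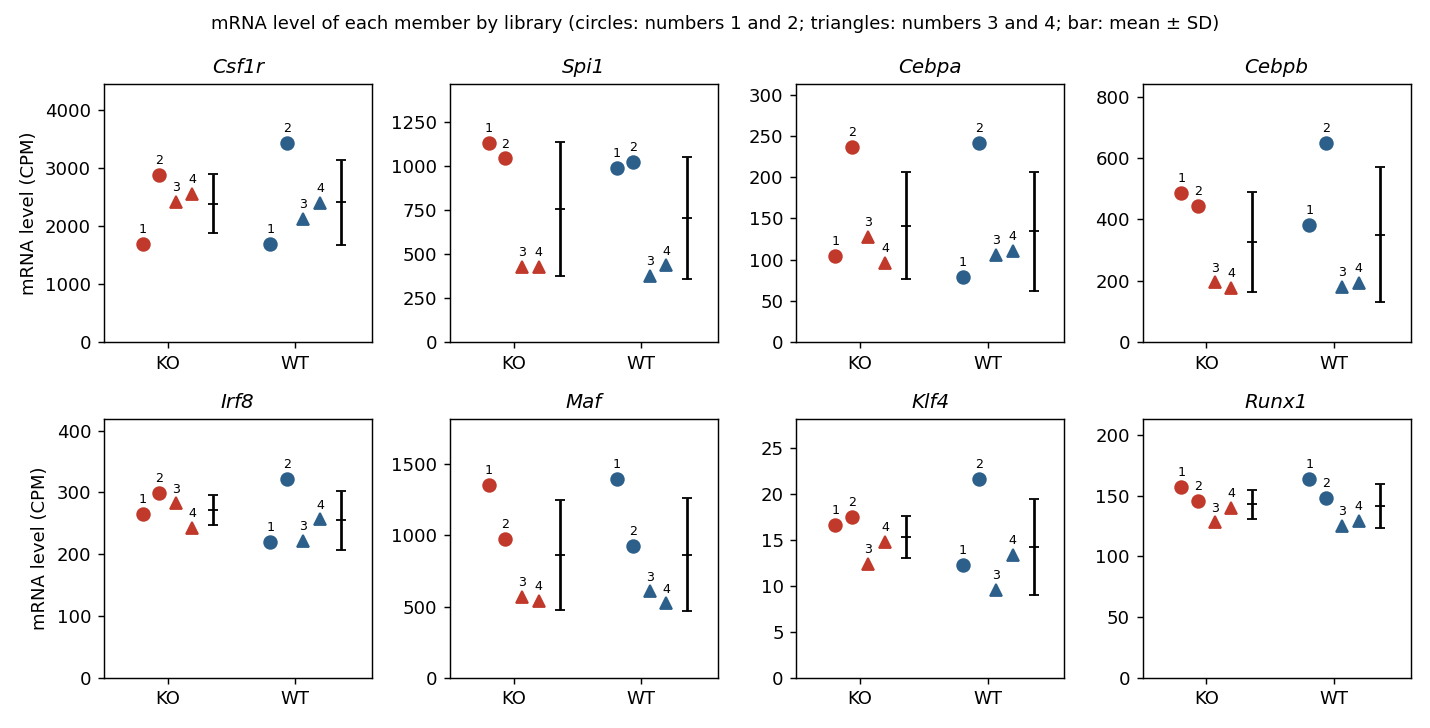
mRNA level in CPM (linear axes from 0) of each member in the 4 KO libraries (red, left) and the 4 WT libraries (blue, right), labelled by library number, with the mean ± SD of each genotype beside them. The genotypes overlap for all 8 members, while Spi1, Cebpb, Maf and, by a small margin, Runx1 separate numbers 1 and 2 (circles) from numbers 3 and 4 (triangles).

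None of the 8 members passed an edgeR QL adjusted p of 0.05, with or without the block. Over all 14019 genes 0.0% were called without the block and 0.0357% with it, so the members' count of 0 is what most genes showed. At an unadjusted edgeR QL p under 0.05 there were 81 genes without the block and 1321 genes with it. With the block the members' adjusted p ran from 0.7213 to 0.9959. DESeq2 called 0.0214% of genes without the block and 0.585% with it, and none of the 8 in either. No member had KO and WT libraries that did not overlap, against 0.785% of all genes, of which 0.35% had KO above and 0.435% KO below. The members' median log2 fold change was 0.04 (0.06 with the block), beside -0.002 over all genes (0.001 with the block). The intervals given are not adjusted for the number of genes tested. A change larger than they allow could therefore still go uncalled, and a smaller one was not detectable with 4 libraries per genotype.

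**Figure D2:**
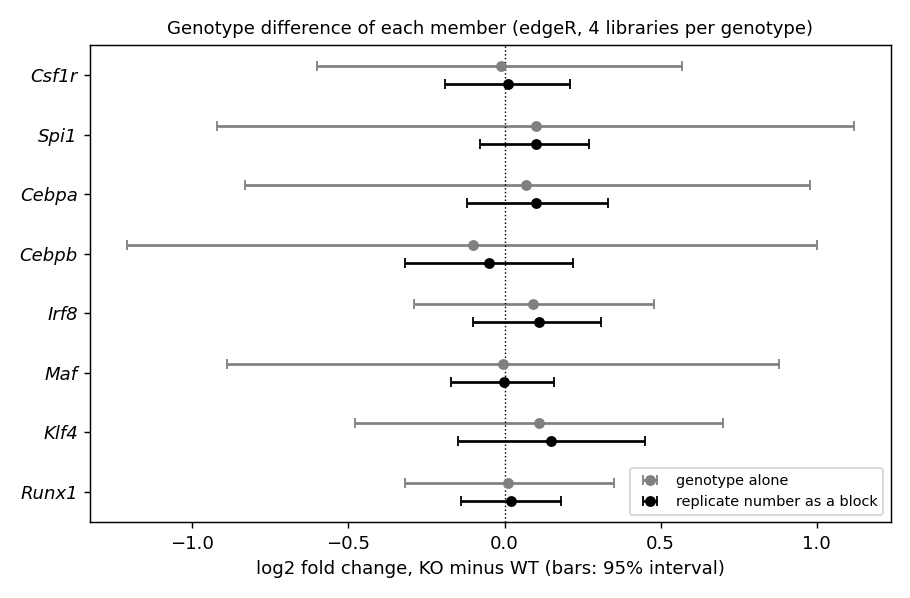
Log2 fold change, KO minus WT, of each member with its 95% interval, from edgeR with genotype alone (grey) and with the replicate number as a block (black). All intervals include 0, and Cebpb has the widest without the block (-1.21 to 1.0).

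The members differed in how steady they were across libraries. Over the 8 libraries the SD of log2 CPM was 0.14 for Runx1, 0.20 for Irf8, 0.35 for Csf1r and 0.36 for Klf4, against 0.59 for Cebpa, 0.59 for Maf, 0.71 for Spi1 and 0.77 for Cebpb. The median gene had 0.38. Only 6.11% of genes had a smaller SD than Runx1, whereas 85.5% had a smaller SD than Spi1 and 87.7% a smaller SD than Cebpb.

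For Spi1, Cebpb and Maf much of that spread lay between the number sets, since within the sets the SD was 0.09, 0.23 and 0.23. Spi1 had 987 to 1130 CPM in numbers 1 and 2, against 375 to 436 CPM in numbers 3 and 4, a ratio of means of 2.51. Cebpb had 382 to 648 CPM in numbers 1 and 2, against 177 to 195 CPM in numbers 3 and 4, a ratio of 2.64. Maf had 926 to 1400 CPM in numbers 1 and 2, against 522 to 606 CPM in numbers 3 and 4, a ratio of 2.09. These 3 members and Runx1, with 146 to 164 against 125 to 140 CPM, were higher in every library of numbers 1 and 2, and no member was lower in every one. Among all genes 24.4% were higher in every library of numbers 1 and 2 and 25.1% were lower, so a separation of this kind was common. The sets became visible in the data and no label names them, so no test was made.

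Csf1r showed no such split. Its mean was 2430 CPM in numbers 1 and 2, against 2370 CPM in numbers 3 and 4, a ratio of 1.02, while its libraries of numbers 1 and 2 ran from 1690 to 3430 CPM. Cebpa likewise ran from 79.1 to 241 CPM within numbers 1 and 2 alone. The levels of other cells' markers also moved with the number sets. Of these, endothelial marker genes summed to 39.5 to 49.3 CPM in numbers 1 and 2, against 99.5 to 129 CPM in numbers 3 and 4, for a list of 8 genes. Vwf alone had 8.79 to 29.1 CPM in numbers 1 and 2, against 57.9 to 64.3 CPM in numbers 3 and 4. Without Vwf the sums were 20.2 to 35.3 CPM in numbers 1 and 2 and 40.6 to 65.1 CPM in numbers 3 and 4. The mean was lower in numbers 1 and 2 for 7 of the 8 genes and higher for 1. Only 2 of the 8 were lower in every library, where 25.1% of all genes were. Of 16 stromal and fibroblast genes 15 had the lower mean in numbers 1 and 2, and without Lox, which alone had 285 to 409 CPM in numbers 1 and 2 against 116 to 171 CPM in numbers 3 and 4, they summed to 11.5 to 22.1 CPM in numbers 1 and 2 and 28.8 to 153 CPM in numbers 3 and 4. The fibroblast collagen gene Col3a1 was at most 0.211 CPM in numbers 1 and 2, against 0.705 to 4.72 CPM in numbers 3 and 4.

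Other lists also split by number set without overlap, while the monocyte, neutrophil, progenitor and erythroid lists overlapped. Macrophage identity and PU.1 target genes summed to 32800 to 42700 CPM in numbers 1 and 2, against 43400 to 52100 CPM in numbers 3 and 4, the opposite direction to Spi1. Without Ctsb these sums overlapped, at 25600 to 32500 CPM in numbers 1 and 2 and 31900 to 40300 CPM in numbers 3 and 4. Dendritic cell genes summed to 4.71 to 15.5 CPM in numbers 1 and 2, against 29.6 to 147 CPM in numbers 3 and 4. Of this, Itgax alone had 1.38 to 9.22 CPM in numbers 1 and 2, against 20.8 to 140 CPM in numbers 3 and 4. Without Itgax the dendritic cell sums overlapped, reaching 6.27 CPM in numbers 1 and 2 and starting at 5.88 CPM in numbers 3 and 4. Mast cell and basophil genes summed to 1.11 to 3.48 CPM in numbers 1 and 2, against 5.13 to 8.82 CPM in numbers 3 and 4, and T and NK cell genes to 1.66 to 2.79 CPM in numbers 1 and 2, against 3.53 to 4.50 CPM in numbers 3 and 4. The B cell list was higher in numbers 1 and 2, at 42.6 to 54.2 CPM, against 27.6 to 32.4 CPM in numbers 3 and 4. Without Cd79b it was lower, at 0.56 to 1.18 CPM in numbers 1 and 2, against 1.42 to 2.80 CPM in numbers 3 and 4. CSF1 receptor signalling genes summed to 8420 to 10200 CPM in numbers 1 and 2, against 6840 to 7180 CPM in numbers 3 and 4. Relatives of the members summed to 3170 to 3490 CPM in numbers 1 and 2, against 2480 to 2690 CPM in numbers 3 and 4. Other myeloid transcription factors summed to 3300 to 3470 CPM in numbers 1 and 2, against 3090 to 3290 CPM in numbers 3 and 4. Without Zeb2 these factors overlapped, at 2730 to 2980 CPM in numbers 1 and 2 and 2550 to 2740 CPM in numbers 3 and 4. Counted by gene, 14 of 40 CSF1 receptor genes were higher in every library of numbers 1 and 2 and 7 lower. For the relatives these counts were 13 and 7 of 43, and for the other myeloid factors 9 and 11 of 38. They were 4 and 13 of 35 for macrophage identity genes and 1 and 2 of 7 for dendritic cell genes. They were 0 and 5 of 6 for mast cell genes and 0 and 3 of 8 for T and NK cell genes. B cell genes had 1 of 7 each way. Among all genes the shares were 24.4% and 25.1%. The mast cell, T and NK cell, CSF1 receptor and relatives lists stayed apart without Prss34, Cd247, Ptpn6 and Ets2 in turn. Without Kit the progenitor list also separated, at 8.03 to 10.2 CPM in numbers 1 and 2, against 6.20 to 7.91 CPM in numbers 3 and 4. The part of these cells, and of the Y-linked difference, in the members' levels was not tested. In bulk RNA fewer cells of a type and less RNA per cell cannot be told apart.

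The genes closest to each member in pattern were sought by the root mean square difference of centred log2 CPM over the 8 libraries, where 0 is an identical pattern. Dda1, Tmem134 and Akt1s1 were closest to Spi1, at 0.066, 0.075 and 0.079, and the closest other member was Cebpb at 0.20. For Csf1r they were 2310022B05Rik, Acot13 and Eng, at 0.079 to 0.087, of which Eng encodes endoglin, a TGF-β co-receptor. Near Maf were Lmo4, at 0.066, and Tnfrsf11a, which encodes RANK, the receptor for the osteoclast factor RANKL, at 0.072. The median gene stood at 0.73 from Spi1, 0.48 from Csf1r and 0.63 from Maf. The nearest genes were Tmem259, Snrpa and Zbed5 for Cebpb (0.12 to 0.128), Oplah, Gpx3 and Nr4a1 for Cebpa (0.114 to 0.127), Fbf1, Stx4a and Coa3 for Irf8 (0.048 to 0.068), and Dgat1, Nt5dc2 and Sirt7 for Klf4 (0.088 to 0.105). For Runx1 they were Senp3, Calr-ps and Trappc10 (0.041 to 0.042), where the counts of the pseudogene Calr-ps are uncertain because its reads can be shared with Calr. These are descriptions over 8 libraries that share the number sets.

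Genes around the members in the same pathways showed no call without the block either. Of 40 genes of CSF1 receptor signalling 39 were tested, 0 were called in either direction, and 24 had a positive fold change, with a median log2 fold change of 0.06. Csf1, the ligand, had 5.18 ± 4.54 CPM in KO and 3.50 ± 2.18 CPM in WT (SD, n = 4 each), and Il34, the other ligand of the receptor, was at most 0.258 CPM in any library and was not tested. Gab2, an adaptor downstream of the receptor, stood at a log2 fold change of 0.22 (SE 0.15), and Cblb, a ubiquitin ligase of the Cbl family, at 0.51 (SE 0.61), both at an edgeR QL adjusted p of 0.9999.

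Of 44 family relatives of the members, 38 were tested and 0 called, 19 of them with a positive fold change. Cbfb, the partner of Runx1, had 109 ± 14.0 CPM in KO and 116 ± 22.9 CPM in WT. Cebpd had 263, 255, 48.2 and 60.8 CPM in KO 1 to 4, against 199, 249, 46.0 and 45.3 CPM in WT 1 to 4, a split by number like that of Cebpb. Klf6 had 268 ± 23.4 CPM in KO and 283 ± 51.6 CPM in WT, and Klf2 had 40.4 ± 29.0 CPM in KO and 46.4 ± 44.9 CPM in WT. Cebpe, Irf4, Runx2 and Runx3 stayed below 7 CPM in every library. The smallest p of this list belonged to Irf7, a factor of the interferon response, with a log2 fold change of 0.59 (SE 0.26, edgeR QL adjusted p = 0.9999; 0.241 with the block).

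Of 38 other myeloid transcription factor genes 36 were tested and 0 called, 25 with a positive fold change, and the median was 0.07. Among 35 macrophage identity genes and PU.1 targets 24 had a positive fold change, and Lyz2, the lysozyme gene that carries the Cre, was the only call, lower in KO with the block (log2 fold change -1.29, edgeR QL adjusted p = 0.000472). It averaged 5070 ± 1000 CPM in KO and 12400 ± 2560 CPM in WT. Markers of less mature or other cells had mostly positive fold changes and no call, beside a median log2 fold change of -0.002 over all genes. The exceptions were dendritic cell genes, positive in 1 of 3, and T and NK cell genes, positive in 1 of 2. Positive fold changes were found for 10 of 11 neutrophil and granulocyte precursor genes (summed 39.5 to 88.7 CPM in KO and 19.6 to 59.9 CPM in WT), 7 of 8 monocyte genes (73.9 to 101 CPM in KO and 67.7 to 99.1 CPM in WT) and 14 of 14 stromal genes (summed without Lox 11.5 to 153 CPM in KO and 13.7 to 89.6 CPM in WT). The monocyte gene of smallest p was Plac8, with 7.77, 8.32, 16.0 and 12.6 CPM in KO 1 to 4, against 2.42, 5.51, 1.8 and 3.82 CPM in WT 1 to 4. All KO libraries lay above all WT libraries, with a log2 fold change of 1.74 (SE 0.39, edgeR QL adjusted p = 0.9999, or 0.084 with the block). Ccr2, the monocyte receptor gene of smallest p with the block, averaged 14.0 ± 8.91 CPM in KO and 7.89 ± 4.61 CPM in WT, with an edgeR QL adjusted p of 0.9999, or 0.0509 with the block. The part of these cells in the members' values was not tested.

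AGO2 groups in the 3′ UTR were listed for 6 of the 8 members in KO and for 7 of 8 in WT, and Klf4 had none in either. The 7 members that had any were all listed in WT, and 6 of them in KO. Among all genes that had any in either genotype, 80.2% had them in KO and 87.4% in WT. With 1 library per genotype there was no test, and the intervals cover counting error only, not differences between cultures or libraries. Reads carry no molecular identifiers, so copies of a molecule are counted as reads and the intervals can be too narrow. Levels are given in RPM, group reads scaled by the reads in all groups of the library, 6445262 in KO and 6287870 in WT. The 3′ UTR held 23.4% of these reads in KO and 28.0% in WT, and the median gene with 3′ UTR groups in both had a KO to WT ratio of 0.762. Conversion events equalled 64.7% of 3′ UTR reads in KO and 79.3% in WT. Both PAR-CLIP libraries held groups of the Y-linked gene Ddx3y, with 414 reads in KO and 467 reads in WT.

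Csf1r carried the most 3′ UTR reads of the 8, with 811 in 8 groups in KO and 813 in 7 groups in WT, or 126 RPM in KO and 129 RPM in WT. The ratio was 0.973 (95% interval 0.882 to 1.07), above the median gene. Scaled instead by the reads in 3′ UTR groups, its log2 ratio was 0.22 (0.08 to 0.36), against -0.04 (-0.18 to 0.10). It ranked 248 of 5559 genes in KO and 345 of 6058 in WT by 3′ UTR reads. Conversion events equalled 57.1% of these reads in KO and 84.0% in WT.

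The KO to WT ratio of Csf1r differed between its groups. The group at chr18:61290221-61290257 had 404 reads in KO, and its WT counterpart 199 reads, a scaled ratio of 1.98. The next, at chr18:61290295-61290322, had 228 reads in KO and 302 in WT, a ratio of 0.737. The group at chr18:61290748-61290776 had 34 reads in KO and 82 in WT, a ratio of 0.405. A match to the miR-146 seed (AGTTCTC) lay in a 3′ UTR group in both genotypes, of 15 reads in KO and 130 reads in WT. The WT group is longer and also overlaps a KO group of 80 reads, so the stretch had 95 reads in KO and 130 reads in WT. That match was in 0.454% of KO 3′ UTR groups of like length, while WT had only 28 groups as long as its own. A match to the miR-22-3p seed (GGCAGCT) lay in a WT group of 57 reads, as in 1.78% of groups of like length. Csf1r also had coding groups, 12 in KO with 401 reads and 11 in WT with 365 reads.

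Maf had 502 reads in 14 groups in KO and 469 reads in 15 groups in WT, a ratio of 1.04 (0.919 to 1.19), or a log2 ratio of 0.32 (0.14 to 0.51) when scaled by reads in 3′ UTR groups. Its 3′ UTR groups were spread along the transcript, and 10 in each genotype overlapped a group of the other. The group with the miR-23a-3p match shown above (AATGTGA) had 61 reads in KO and 20 reads in WT, fully converted in both. Such a match was in 2.23% of KO and 1.46% of WT 3′ UTR groups of like length (within 2 bases). A group of 91 reads with a miR-30e-5p match, held by 1.10% of groups of like length, was listed in WT and had no overlapping group in KO. Another miR-23a-3p match, an 8mer, lay in a WT group of 37 reads with none overlapping in KO. Of all 3′ UTR groups, 52.1% in KO and 40.7% in WT overlapped a group of the other genotype, so an unmatched group was common.

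Runx1 had fewer 3′ UTR reads in KO, 317 in 9 groups, against 604 in 10 groups in WT. That is 49.2 RPM in KO and 96.1 RPM in WT, a ratio of 0.512 (0.446 to 0.588). The group with the miR-30e-5p match had the most reads, 135 reads in KO and 359 reads in WT, with as many conversion events as reads in both, a scaled ratio of 0.367. The 8 letters TGTTTACA there hold both forms of the seed match, and 1.70% of KO and 1.55% of WT 3′ UTR groups of like length held a match of either form. Further upstream, a group classed as coding with a miR-27 match (CTGTGAA) had 177 reads in KO and 194 reads in WT, with 67 conversion events in KO and 175 in WT, and 4.27% of KO and 3.90% of WT coding groups of like length held such a match. In WT an adjoining group of 17 reads held an 8mer match to the same seed. Intron groups of Runx1 held 250 reads in KO and 101 reads in WT, and 83 conversion events in KO and 17 in WT, so over all classes its ratio was 0.769 (0.702 to 0.843). The intron group matched between the genotypes had 88 reads in each, so the difference lay in unmatched groups.

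Spi1 had 99 3′ UTR reads in 3 groups in KO and 246 reads in 2 groups in WT, a ratio of 0.393 (0.308 to 0.498). A single place carried most of this. The KO group at chr2:90955889-90955913 had 61 reads and the overlapping WT group at chr2:90955886-90955915 had 229 reads, both fully converted, a scaled ratio of 0.26. None of the 20 seeds searched matched it. The group with the miR-155-5p 8mer was listed in KO alone, with 21 reads and full conversion, and 0.288% of 3′ UTR groups of like length in KO held that match. Coding groups of Spi1 held 82 reads in KO and 17 reads in WT, so over all classes the ratio was 0.671 (0.553 to 0.814). Of the KO coding reads 66 lay in a group with no overlapping WT group. The coding group matched between the genotypes had 16 reads in KO and 17 reads in WT.

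Cebpa had 33 3′ UTR reads in 2 groups in KO and 116 reads in 6 groups in WT, a ratio of 0.278 (0.183 to 0.412). Its only group matched between the genotypes had 18 reads in KO and 24 reads in WT. Irf8 had 52 reads in 2 groups in KO and 35 reads in 3 groups in WT, a ratio of 1.45 whose interval (0.926 to 2.29) included 1. Its log2 ratio of 0.54 became 0.96 (0.26 to 1.70) with converted groups alone and 0.80 (0.15 to 1.46) when scaled by reads in 3′ UTR groups, intervals that lay above 0. The larger signal of Irf8 lay in its coding sequence, where the group with the miR-24-3p match (CTGAGCCA) had 108 reads in KO and 176 reads in WT. A match of either form was in 1.48% of KO and 1.03% of WT coding groups of like length. Cebpb had no 3′ UTR group in KO and 1 in WT with 17 reads, fully converted. Klf4 had none in either, and its 2 KO groups, in the 5′ UTR and an intron, had no conversion.

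**Figure D3:**
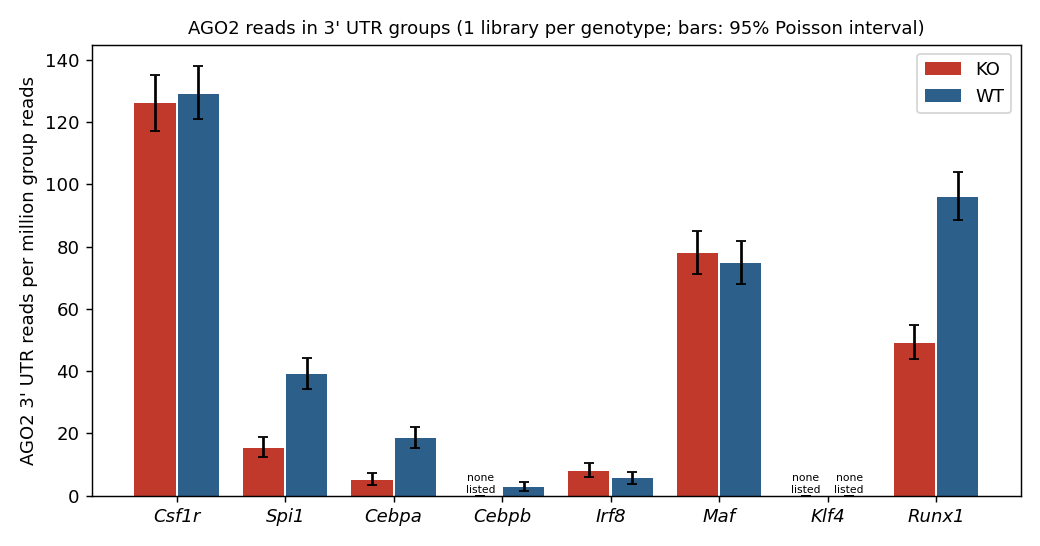
AGO2 reads in 3′ UTR groups in RPM, for each member, in the KO library (red, left bars) and the WT library (blue, right bars), with 95% Poisson intervals that cover counting error only. Csf1r and Maf have like bars in both, Runx1, Spi1 and Cebpa have lower KO bars, and Klf4 has no group listed.

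Set against all genes, 2 of the 6 members with 3′ UTR groups in both genotypes, Spi1 and Cebpa, were at least 2-fold lower in KO, where 24.7% of 4684 genes were, and 0 were at least 2-fold higher, where 10.1% were. Runx1, at 0.512, lay just outside that fold. Of the members' 19 3′ UTR groups that overlapped exactly 1 group of the other genotype, 3 were at least 2-fold lower in KO, in Spi1, Runx1 and Csf1r, and 6 at least 2-fold higher, of which 4 were in Maf. Over 8535 such groups 23.0% were lower and 14.1% higher by that fold, with a median ratio of 0.858. The blocked mRNA fold was 1.07 for Spi1 (0.949 to 1.20) and 1.07 for Cebpa (0.919 to 1.25). The highest and lowest mRNA libraries differed 3.01-fold for Spi1 and 3.05-fold for Cebpa, and the PAR-CLIP libraries carry no number, so the part of differences between cultures in the AGO2 ratios was not tested.

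**Figure D4:**
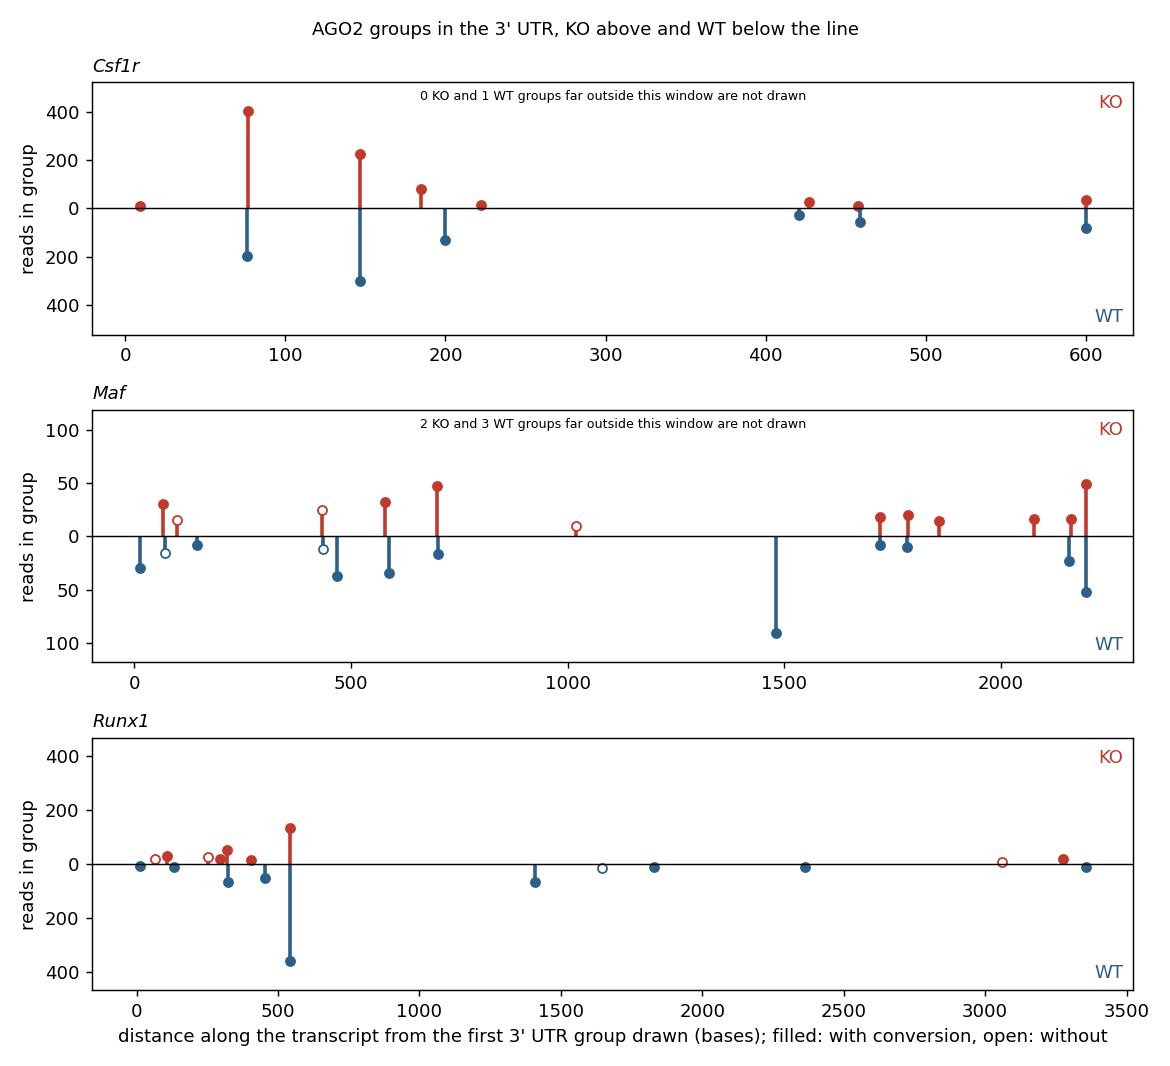
Reads in 3′ UTR AGO2 groups of Csf1r, Maf and Runx1, KO upward and WT downward. Position is the distance in bases along the transcript from the first group drawn (filled points have conversion events, open points none). Groups far from the rest are not drawn: those of Maf from chr8:118207839 to chr8:118208041 and that of Csf1r in WT at chr18:61280518-61280538. The undrawn Maf groups include its largest, with 149 reads in KO and 100 reads in WT. The tall Runx1 group at the miR-30e-5p match has 135 reads in KO and 359 reads in WT, and the tallest Csf1r group has 404 reads in KO.

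The miRNAs named here were all present in both genotypes. The level of miR-30e-5p was 7467 and 8144 CPM in KO 3 and KO 4, against 7912 and 7059 CPM in WT 1 and WT 2. That of miR-24-3p was 42750 and 42840 CPM in KO 3 and KO 4, against 37560 and 48390 CPM in WT 1 and WT 2. The values of miR-155-5p were 430.7 and 369.2 CPM in KO 3 and KO 4, against 351.2 and 375.8 CPM in WT 1 and WT 2. The genotypes overlapped for these 3 and for miR-23a-3p, miR-27b-3p and miR-146b-5p. They did not for miR-146a-5p, with 38030 and 34190 CPM in KO 3 and KO 4, against 41730 and 47080 CPM in WT 1 and WT 2, or for miR-22-3p, with 3554 and 3170 CPM in KO 3 and KO 4, against 4185 and 4212 CPM in WT 1 and WT 2. The level of miR-27a-3p, which shares the seed of miR-27b-3p, was 5124 and 5306 CPM in KO 3 and KO 4, against 5754 and 5745 CPM in WT 1 and WT 2. These 3 were lower in both KO libraries than in either WT library, which held for 25.4% of 485 miRNAs, while 15.9% were higher in both. KO small RNA came from numbers 3 and 4 and WT small RNA from numbers 1 and 2, so genotype and number cannot be told apart there, and no test was made.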

How the data were processed

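The members and gene lists were chosen with earlier results of these data known. Per the file headers, the authors' mRNA files give Ensembl genes with their counts and, beside them, RPKM. The small RNA files hold read counts of 485 mature miRNAs, and the PAR-CLIP tables list AGO2 groups with counts of reads and conversions. The submitters' processing notes name CASAVA 1.8.2, Bowtie 0.12.7 and build mm9. How genes were counted, whether strand was used and how groups were called is not given in the sources used here.

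Symbols matched 19328 of 21444 identifiers. Counts were tested with edgeR 4.0.16 (R 4.3.3) quasi-likelihood fits, TMM scaling and filterByExpr, genotype alone, with Benjamini-Hochberg adjustment over 14019 genes. DESeq2 1.42.0, other scalings, no filter, blocks, number sets and left-out libraries were alternatives. CPM values are TMM-scaled. On simulated data with 200 genes changed by a log2 fold of 2, the fit with genotype alone recovered 93% with 11 false calls and the blocked fit 100% with 19 false calls. Each simulation was drawn from the model that was then fitted to it. These rates therefore cannot show the power for smaller changes or whether equal numbers are pairs. The deposited RPKM values were used as levels only.

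Equal numbers are taken as pairs because deviations from the genotype means correlated at 0.770, 0.810, 0.745 and 0.801 for KO and WT of numbers 1 to 4, all above 0.1. Unequal numbers within a number set also passed 0.1. The values were 0.832 for KO 3 with WT 4, 0.764 for KO 4 with WT 3, 0.344 for KO 1 with WT 2 and 0.241 for KO 2 with WT 1. The correlations therefore cannot tell pairs from number sets, above all in numbers 3 and 4, and the blocked intervals rest on the pairing as taken.

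AGO2 groups were taken by gene name, overlap meant 1 base on the same strand, ratios have exact 95% intervals, and seeds of the 30 most abundant miRNAs plus miR-155-5p, miR-223-3p and miR-22-3p were searched on the transcript strand, in 20 families. The families were built from RefSeq sequences matched by name, which leaves out miR-378a-3p, miR-30d-5p and miR-142-3p. Named genes were all members, any list gene called, otherwise the list gene of smallest p, the 3 nearest genes in pattern, and a set of ligands, partners and relatives. Some genes that this rule names are not reported here. AGO2 groups named had at least 20 reads with conversion in either genotype; smaller ones named for a seed match or as a member's only group were chosen after their values were seen. No sequence of Csf1r is printed. Analysis used Python 3.11.15, pandas 2.3.3, numpy 2.4.6 and scipy 1.17.1.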

Additional observations from a re-analysis of the deposited data

How the results depend on the processing

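Under 21 alternatives the 8 members gave 168 log2 fold changes, of which 0 passed the threshold. The smallest adjusted p was 0.4361, 136 had the main direction and 32 the opposite one. Opposite signs outside the left-out libraries were Csf1r at 0.01 with the replicate block in edgeR and 0.01 in DESeq2 and at 0.13 in numbers 3 and 4 alone, and Maf at 0.003 and Runx1 at -0.05 in numbers 1 and 2 alone. Leaving out a library or pair moved Csf1r between -0.15 and 0.21, Spi1 between -0.16 and 0.34, Cebpa between -0.30 and 0.52, Cebpb between -0.36 and 0.38, Irf8 between 0.03 and 0.23, Maf between -0.32 and 0.33, Klf4 between -0.04 and 0.38 and Runx1 between -0.04 and 0.09. Within the blocked fits, which leave out a pair, Cebpb reached 0.12 without pair 2 and Runx1 -0.02 without pair 4. Over all genes the calls higher in KO were 0 without the block, 1 with the replicate block, 35 with that block in DESeq2, 8 in numbers 3 and 4 alone and 0 to 17 with a library or pair left out. Calls lower in KO were 4 with the replicate block, 47 with that block in DESeq2, 3 in DESeq2 without it, 1 with number sets as a block, 6 in numbers 3 and 4 alone and 0 to 12 with a library or pair left out. The block ended or made no call among the members.

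Of 22 AGO2 values under alternatives 16 stayed within the main counting interval and 6 moved. Csf1r, at -0.04, turned to 0.01 over all classes, and Maf, at 0.06, was at 0.00 with converted groups alone. The log2 ratio of Runx1 was -1.19 with converted groups alone, -0.38 over all classes and -0.71 scaled by 3′ UTR reads. Spi1 was at -0.57 over all classes, and scaled by 3′ UTR reads Csf1r turned to 0.22 and Maf was at 0.32, with intervals above 0, as were those of Irf8 at 0.80 and, with converted groups alone, 0.96. Groups of at least 20 reads gave no value for Cebpa and Irf8. Asking for an overlap of 50% left 20 of the members' 38 KO groups (52.6%) and 20 of their 44 WT groups (45.5%) matched, against 23 (60.5%) and 22 with 1 base. The causes were not tested. Klf4, Cebpb, Cebpa and Irf8 had at most 116 3′ UTR reads each in either PAR-CLIP library, so few reads stand behind their AGO2 values.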
